A study of Rattus norvegicus with 24 samples.

Results

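Ap5s1, Bola1, Josd2, Yif1a, Mkrn1 and Mgat4b are 6 of the 17420 genes in an expression table of the embryonic rat forebrain. They were chosen by symbol because their mean level differed from saline-treated controls in the same direction after all 3 prenatal treatments, Low Protein, MAM and Poly I:C. The choice therefore used every difference between a treated group and saline, and those differences are given below as a description, without a test. For these genes only the treated groups were tested against each other, because those comparisons leave the saline mean out. The saline pups still enter the estimate of the spread in the fit over all pups. A choice by the same direction in all 3 groups can itself favour genes whose treated means lie close together. A lack of differences between treated groups is therefore not independent of the choice.

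RNA was sequenced from the hippocampus and neocortex of 24 Sprague-Dawley rat pups on embryonic day 18, with 6 pups per group and 3 pups from each of 2 litters. Saline, MAM (methylazoxymethanol acetate, an agent that methylates DNA and acts on dividing cells, 22 mg/kg) or Poly I:C (polyinosinic:polycytidylic acid, a synthetic double-stranded RNA that mimics a viral infection, 7.5 mg/kg) was injected intraperitoneally into the dam on gestational day 17, and tissue was taken 18 hours later. Low Protein dams ate a diet with 6.1% protein from gestational day 11, and the control diet held 20.3%. Neither the diet of dams given MAM or Poly I:C nor an injection of Low Protein dams is stated in the sources used here. The dam received the treatment and each group holds 2 litters, so the spread between pups is not a spread between independently treated dams. Pups are named by litter and pup, so that saline pup 2.1 is the first pup of the second saline litter. The level of a gene is the deposited TPM, scaled for length and library size, with a sum of 70350.1 in every pup. Low values times genomic span lay near whole numbers more often than by chance, so the length appears to be the span, introns included. Levels of different genes are therefore not read as transcript abundance. A difference is that of the mean log2 TPM. The depth, estimated from the steps between low values, was 25 to 65.1 M reads per pup.

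The 6 genes encode proteins of membrane traffic, mitochondria, ubiquitin and glycan chemistry. Ap5s1 encodes the sigma subunit of AP-5, an adaptor complex of late endosomes, and Yif1a encodes a membrane protein of transport between the endoplasmic reticulum and the Golgi apparatus. Bola1 encodes a mitochondrial BolA protein linked to iron-sulfur cluster handling. Josd2 encodes a deubiquitinase of the Josephin family, which removes ubiquitin, whereas Mkrn1 encodes a makorin, a RING-type ligase that attaches it. Mgat4b encodes a Golgi enzyme that adds a branch to N-linked glycans.

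The promoters of the members were searched for patterns that they share. RefSeq promoters of the GRCr8 assembly, taken as the 250 bases before each start, were available for all 6 genes. Among patterns of 6 letters, 3 free positions and 3 letters on either strand, 2 occurred in at least 3 members, and they overlap at the same sites. The one with more matches, ACTACANNNCCC, resembles an element known from promoters of many housekeeping genes. It matched once in Ap5s1, once in Bola1 and at 2 places in Josd2, and it did not match in Yif1a, Mkrn1 or Mgat4b. The form of the pattern was set after the sequences had been read, and it occurs in 2.01% of 27457 promoters and in 5.3% of the 3979 promoters of genes tested. Presence in at least 3 members was the criterion of the search, and these shares do not allow for it. Nothing is therefore read from the sharing. The matches are shown in 30-base stretches with the element, on either strand, in capitals, 5′ to 3′ on the strand of the gene.
Bola1, chr2:186448492-186448521, minus strand: aaatcagggACTACAATTCCCataaaccct
Ap5s1, chr3:138882570-138882599, plus strand: tgcctccgcACTACAACCCCCagagttcag
Josd2, chr1:104097381-104097410, plus strand: tcattggttACTACATCTCCCaggaacctc
Josd2, chr1:104097453-104097482, plus strand: ccgtccgatGGGAGTTGTAGTcccatgtgg

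The remaining promoters carried commoner elements. Yif1a held 5 matches to CCAAT, which occurs in 38.5% of the promoters of genes tested, and Josd2 and Mkrn1 held 1 each. GGGCGG, the GC box, matched 2 times in Mkrn1 and 3 times in Mgat4b and occurs in 62.9% of those promoters. Mkrn1 and Mgat4b were the only members with a GC box, and with 6 genes and so common an element nothing is read from this. In the same promoters CCGGAA, found in 28.7%, matched once in Josd2, and TATAAA, found in 6.46%, matched once in Bola1. The GC content was 44.0% in Bola1, 56.0% in Yif1a, 58.4% in Josd2, 59.2% in Mkrn1, 66.0% in Ap5s1 and 70.4% in Mgat4b. A match is a run of letters and not a measured binding site. The stretches below show these elements, again in capitals and on either strand, in the genes that lacked the first one.
Yif1a, chr1:211824338-211824367, plus strand: ctcctcggacgagCCAATggtggacagcga
Mkrn1, chr4:69164060-69164089, minus strand: aagcgtgcggccCCGCCCctttaGGGCGGg
Mgat4b, chr10:35050444-35050473, plus strand: tttaaatcccggCCGCCCCGCCCttcgccc

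The whole promoter of Bola1 is shown because its differences to saline depended most on the saline litter, as described below, and because it holds both the shared element, in capitals, and a TATAAA match near its far end.
Bola1, chr2:186448403-186448652, minus strand: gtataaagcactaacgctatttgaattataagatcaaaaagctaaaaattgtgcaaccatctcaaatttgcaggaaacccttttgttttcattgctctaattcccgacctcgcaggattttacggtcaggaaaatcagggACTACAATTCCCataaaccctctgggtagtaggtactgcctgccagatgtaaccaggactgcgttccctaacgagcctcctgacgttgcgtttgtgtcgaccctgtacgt

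In all, 4 members, Ap5s1, Bola1, Josd2 and Yif1a, had a higher mean log2 TPM than saline in all 3 treated groups, and 2 members, Mkrn1 and Mgat4b, a lower one. Of the 5086 genes with a mean above 1 TPM in every group, called the genes tested, 16.2% were higher and 28.3% lower in all 3 groups. Since this direction is what chose the members, nothing is read from the counts. The 3 differences of a gene share the same 6 saline pups. Ap5s1 had a saline mean of 0.920 TPM and fell outside the genes tested, so 5 of the 6 members are among them.

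Ap5s1, the AP-5 subunit, showed the widest differences. Its lowest, median and highest TPM were 0.847, 0.926 and 1.01 in saline. They were 0.956, 1.17 and 1.40 after Low Protein, 1.04, 1.21 and 1.34 after MAM, and 0.930, 1.14 and 1.56 after Poly I:C. All 6 MAM pups lay above the highest saline pup, an arrangement found for 0.275% of the genes tested. The remaining groups overlapped saline through 2 Low Protein pups and 1 Poly I:C pup. The difference to saline was 0.33 after Low Protein, 0.40 after MAM and 0.38 after Poly I:C. It is also the least deeply covered member, with an estimated median of 159.2 reads per saline pup. Counting error at the group median was 7.93% in saline, beside an SD of 7.12% between pups. It was 7.06% beside 18.8% after Low Protein, 7.14% beside 10.1% after MAM and 7.72% beside 20.03% after Poly I:C, so the treated pups spread more than counting error gives.

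Bola1, the mitochondrial BolA gene, had the widest spread between saline pups of the 6 genes, with an SD of 0.25 in log2 TPM. TPM ran from 5.26 over a median of 7.20 to 8.35 in saline. The lowest, median and highest values were 6.99, 7.95 and 9.59 after Low Protein, 7.94, 8.54 and 9.96 after MAM, and 7.81, 8.10 and 8.86 after Poly I:C. Only 6 of the 18 treated pups exceeded the highest saline pup, although all 18 exceeded the saline mean of log2 TPM. The lowest Low Protein pup, at 6.99 TPM, lay below the saline mean of TPM, 7.04. The difference to saline was 0.20 after Low Protein, 0.33 after MAM and 0.24 after Poly I:C. Counting error was 5.22% at the saline median, against an SD of 19.3% between saline pups.

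Josd2, the deubiquitinase gene, was shifted by nearly the same amount in each group. Its lowest, median and highest TPM were 1.88, 2.02 and 2.19 in saline, 2.15, 2.28 and 2.57 after Low Protein, 2.09, 2.29 and 2.62 after MAM, and 2.01, 2.32 and 2.58 after Poly I:C. Of the 18 treated pups 13 lay above all saline pups and 5 within their range. The difference was 0.18 after Low Protein, 0.17 after MAM and 0.17 after Poly I:C.

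Yif1a, the transport gene, separated fully from saline in 1 group. The lowest, median and highest TPM were 1.60, 1.80 and 1.82 in saline, 1.77, 1.97 and 2.11 after Low Protein, 1.83, 1.93 and 2.03 after MAM, and 1.72, 1.91 and 2.23 after Poly I:C. All 6 MAM pups lay above all saline pups, the same arrangement as in Ap5s1. The Low Protein group overlapped saline through 1 pup and Poly I:C through 3. The difference was 0.18 after Low Protein, 0.15 after MAM and 0.16 after Poly I:C.

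Mkrn1, the makorin gene, had the tightest saline group. TPM ran from 2.68 over a median of 2.84 to 2.89 in saline. The lowest, median and highest values were 2.41, 2.55 and 2.64 after Low Protein, 2.42, 2.58 and 2.69 after MAM, and 2.398, 2.56 and 2.93 after Poly I:C. All 6 Low Protein pups lay below all saline pups, as in 0.531% of the genes tested, and 5 MAM pups and 4 Poly I:C pups did so. Poly I:C pup 1.1 was the exception in the other direction, above every saline pup. The difference was -0.14 after Low Protein, -0.13 after MAM and -0.11 after Poly I:C.

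Mgat4b, the glycan branching gene, had the highest TPM of the members in saline. Its lowest, median and highest TPM were 9.12, 10.1 and 10.7 in saline, 8.46, 8.94 and 9.38 after Low Protein, 8.67, 9.10 and 9.82 after MAM, and 8.07, 8.73 and 9.55 after Poly I:C. Of the 18 treated pups 11 lay below all saline pups and 7 within their range, and all 18 lay below the saline mean. The difference was -0.15 after Low Protein, -0.11 after MAM and -0.18 after Poly I:C. The gene overlaps Ltc4s on the opposite strand, at a mean of 0.0566 TPM, and whether reads were counted by strand is not given in the sources used here. RefSeq lists pseudogenes of Josd2 and Mkrn1, and a sharing of reads with them was not tested.

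**Figure D1:**
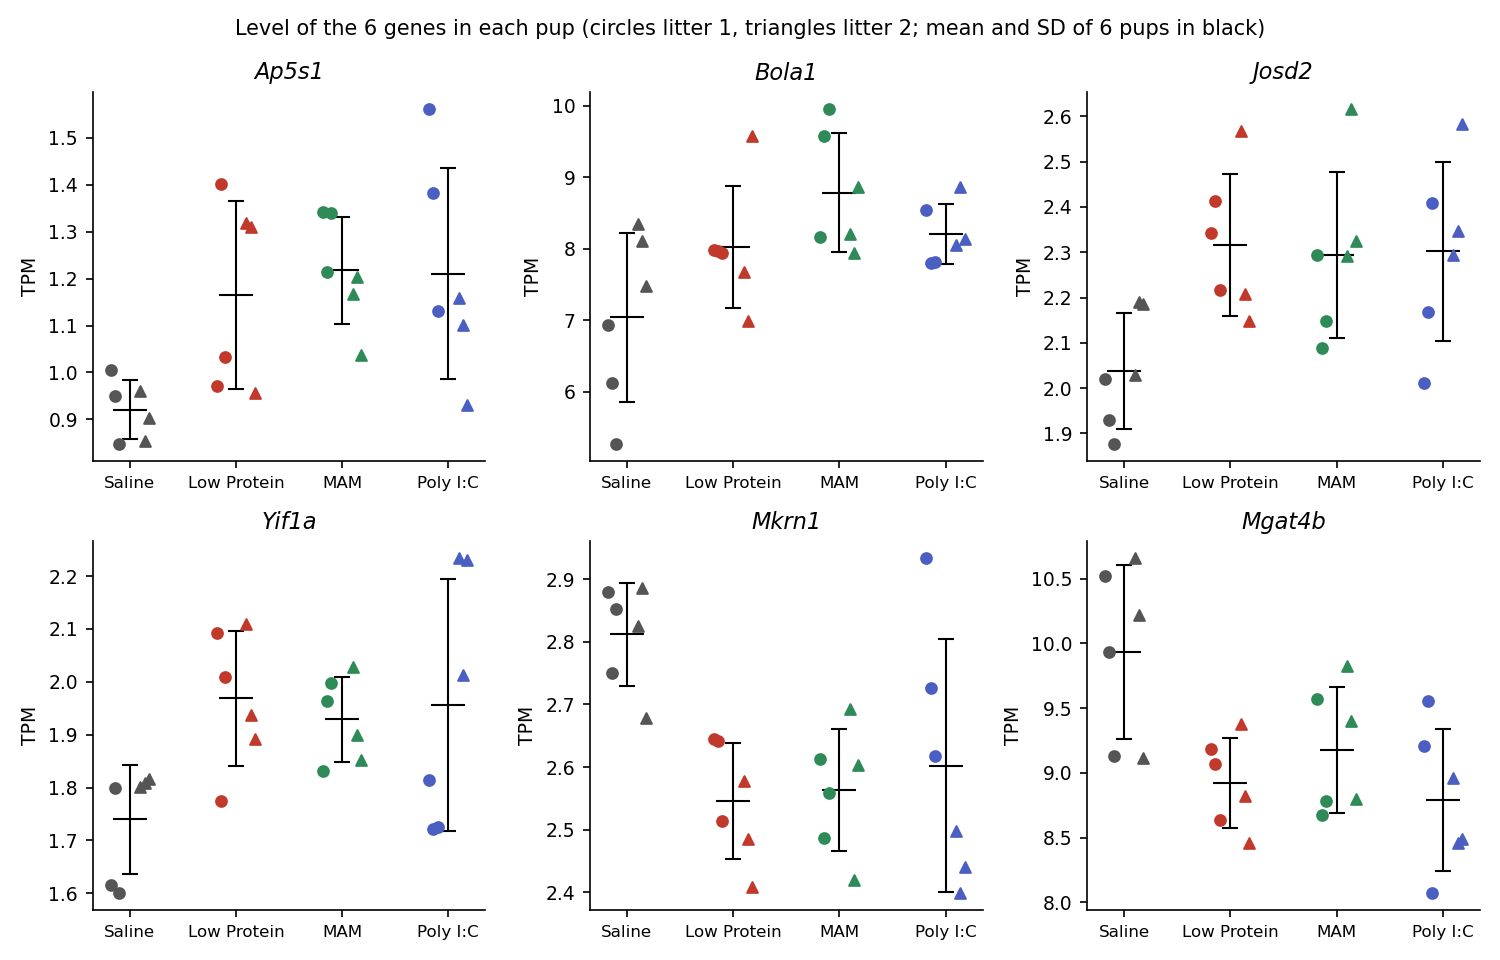
TPM of each gene in each of the 24 pups, by group, with litter 1 as circles, litter 2 as triangles, and the mean and SD of 6 pups in black; the vertical axes do not start at 0. All 18 treated pups lie above the saline mean for Ap5s1 and below it for Mgat4b. For Bola1 all treated pups but the lowest Low Protein pup (6.99 TPM) lie above the saline mean (7.04 TPM). The circles of the saline group lie below its triangles for Bola1, Josd2 and Yif1a.

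How far each difference rested on the saline pups varied between the genes. For Bola1 the saline mean contributed 74.7% of the squared error of the Low Protein difference, 78.1% of the MAM difference and 92.4% of the Poly I:C difference. Its saline litters did not overlap, with litter 1 lower by a log2 difference of -0.39. With so few pups per litter, litters can also separate by chance. The share of the genes tested with such a separation is not given, here or for the genes below. A lack of overlap is therefore not read as a trait of these genes. Without saline litter 1 the Bola1 differences were 0.0039 after Low Protein, 0.14 after MAM and 0.041 after Poly I:C, and without saline litter 2 they were 0.40, 0.53 and 0.43. A single pup, saline pup 1.3, the lowest of its group, also moved Bola1, to 0.12 after Low Protein, 0.25 after MAM and 0.16 after Poly I:C when left out. The Bola1 difference after Low Protein was near 0 against 1 of the 2 saline litters.

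Josd2 and Yif1a had the same arrangement in saline with smaller gaps. Saline litter 1 did not overlap litter 2 and was lower, by -0.14 in Josd2 and -0.12 in Yif1a. Leaving out saline litter 1 gave Josd2 differences of 0.12, 0.10 and 0.11 after Low Protein, MAM and Poly I:C, and leaving out litter 2 gave 0.25, 0.24 and 0.24. The Yif1a differences were 0.12, 0.092 and 0.10 without saline litter 1, and 0.24, 0.21 and 0.22 without litter 2. All kept their sign, and each was larger against saline litter 1 than against litter 2.

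For Ap5s1, Mkrn1 and Mgat4b the saline litters differed little. The litter gap was 0.042 in Ap5s1, 0.016 in Mkrn1 and -0.019 in Mgat4b. Leaving out either saline litter kept the Ap5s1 differences between 0.30 and 0.42. For Mkrn1 they stayed between -0.15 and -0.11, and for Mgat4b between -0.19 and -0.10. The saline share of the squared error was 12.4% to 33.9% in Ap5s1, 12.9% to 39.0% in Mkrn1 and 54.6% to 75.5% in Mgat4b.

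**Figure D2:**
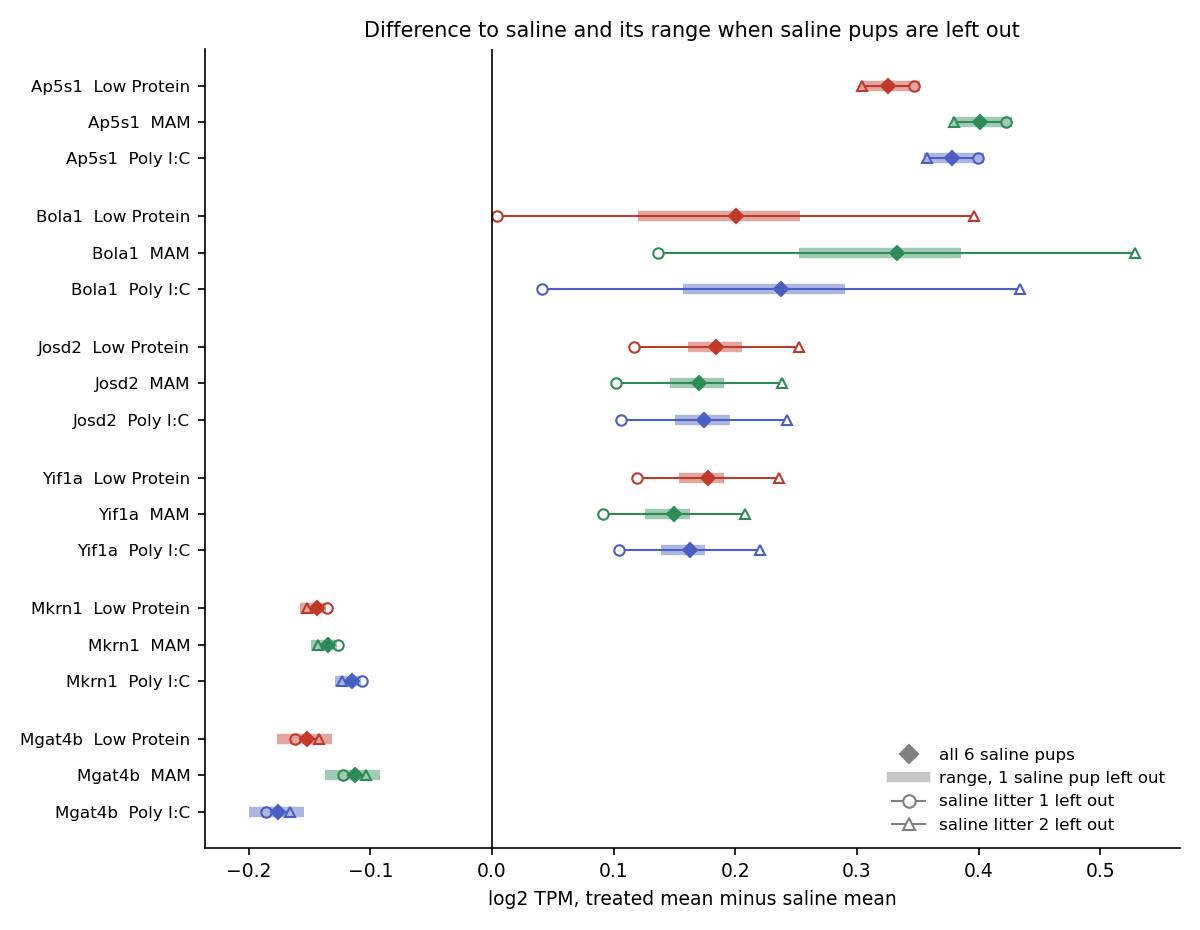
Difference in mean log2 TPM between each treated group and saline (diamonds), its range when 1 saline pup is left out (bars), and its value without saline litter 1 (circles) or litter 2 (triangles). The Bola1 lines are the longest, from 0.0039 to 0.40 after Low Protein, and no value crosses 0.

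Litters of the treated groups mattered as well. Ap5s1 had the widest such gap, 0.35 after Poly I:C with overlapping litters, and its difference to saline was 0.20 without Poly I:C litter 1 and 0.55 without litter 2. Its MAM litters did not overlap, with a gap of 0.19, and the difference was 0.30 without MAM litter 1 and 0.50 without litter 2. Josd2 was at 0.097 without MAM litter 2 and at 0.11 without Poly I:C litter 2, whereas leaving out litter 1 of either group gave 0.24. After Poly I:C the litters of Yif1a did not overlap, with a log2 gap of -0.30, and its difference to saline was 0.013 without Poly I:C litter 2 and 0.31 without litter 1. Mkrn1 showed a gap of 0.17 in the same group, and its difference was -0.028 without Poly I:C litter 2 and -0.20 without litter 1. The higher litter was litter 2 for Yif1a and litter 1 for Mkrn1, so for both genes it was litter 2 that stood apart from saline. When each treated litter was set against each saline litter, all 4 pairings had the sign of the whole comparison for every gene and treatment, with 2 exceptions. Bola1 after Low Protein reached -0.00037 and Yif1a after Poly I:C reached -0.045 in 1 of the 4 pairings.

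Saline pup 2.1 stood apart in its tissue markers. The summed level of 7 markers of the ganglionic eminence and striatum was 96.9 TPM in this pup, against a saline range of 45.6 to 96.9 with a median of 59.2. The range was 38.6 to 57.7 in pups of the Low Protein group, 42.4 to 58.4 in MAM pups and 45.8 to 68.2 in Poly I:C pups. The summed level of 10 pallial and hippocampal markers ranged from 210 to 384.1 in saline, and from 264.2 to 420.5 in treated pups. Saline pup 2.1 also had the highest saline level of Bola1 and Mgat4b. Without it the Bola1 differences were 0.25, 0.39 and 0.29 after Low Protein, MAM and Poly I:C, and the Mgat4b differences were -0.13, -0.092 and -0.15. The Josd2, Yif1a, Mkrn1 and Ap5s1 differences moved by less than those of Bola1. Low Protein pup 2.2 also stood apart. It had the highest sums of its group for meninges (31.3 TPM, group median 8.27), choroid plexus (210.5), blood (4551), microglia (11.6) and endothelium (77.4). Genes with high TPM dominate such sums. In the Low Protein group Cldn5, at a mean of 54.6 TPM, made up most of the endothelium sum, and Hba1, at 2197, most of the blood sum. Without pup 2.2 the Low Protein differences were 0.29 in Ap5s1, 0.24 in Bola1, 0.20 in Josd2, 0.18 in Yif1a, -0.14 in Mkrn1 and -0.15 in Mgat4b. Every listed marker in the table was above the offset in every pup, blood markers among them at 1863 to 4551 TPM in sum. Their part in the differences was not tested, and a smaller share of a cell type cannot be told apart from less RNA per cell.

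Between the treated groups, none of the 5 members tested differed in limma after adjustment over the genes tested, and none passed an unadjusted p of 0.05 with all pups and the deposited scaling. At the adjusted threshold 0.0983% of the genes tested passed for Low Protein against MAM, 0.0393% for Low Protein against Poly I:C and 3.46% for MAM against Poly I:C. At the unadjusted threshold these shares were 11%, 5.31% and 23.1%. Ap5s1, taken from a fit without the filter on the group mean, did not pass either threshold. Among the alternatives 6 values had an unadjusted limma p under 0.05, and none of them passed after adjustment. One was Mgat4b for MAM minus Poly I:C, at 0.11 under the median of ratios (limma adjusted p = 0.175) against 0.063 as deposited. Yif1a gave 4 of them, with opposite signs for the Poly I:C litters. When the first Poly I:C litter was left out, its Low Protein minus Poly I:C value was -0.13 and its MAM minus Poly I:C value -0.16. When the second was left out, these were 0.16 and 0.14. Mkrn1 gave the last with the second left out, at -0.12 for Low Protein minus Poly I:C. Over the 18 comparisons of 6 genes and 3 pairs of groups, adjusted p in limma ranged from 0.494 to 0.989, and the exact two-sided permutation test of 6 pups against 6 gave unadjusted p from 0.132 to 0.959. The count of genes passing the adjusted threshold for MAM against Poly I:C, 176, ran from 0 without MAM litter 2 to 313 without saline pup 2.1. The p-values treat pups as independent, although pups of a litter share a dam.

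The widest difference between treated groups was that of Bola1, at 8.02 ± 0.853 TPM (SD, n = 6) after Low Protein and 8.79 ± 0.831 (SD, n = 6) after MAM. The log2 difference was -0.13 (standard error 0.092, 95% interval -0.32 to 0.058, limma adjusted p = 0.628, exact permutation p = 0.132). For MAM against Poly I:C the Bola1 difference was 0.095, with an interval from -0.096 to 0.29. Both intervals include a difference of the size that Bola1 showed between Low Protein and saline. The spread behind them includes the saline pups, with an SD of 0.25 in log2 TPM. That SD was 0.15, 0.13 and 0.073 after Low Protein, MAM and Poly I:C.

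For the remaining genes the estimates were smaller. Josd2 differed by 0.015, 0.010 and -0.0044 between Low Protein and MAM, Low Protein and Poly I:C, and MAM and Poly I:C, with bounds from -0.14 to 0.15 over the 3 intervals. Yif1a differed by 0.028, 0.015 and -0.013 in the same order, with bounds from -0.15 to 0.16. Mkrn1 differed by -0.0093, -0.029 and -0.020, with bounds from -0.13 to 0.088. A gap of the size of its difference between Low Protein and saline, -0.14, lay outside the 3 intervals. The spread behind these intervals includes the saline pups, the tightest group of Mkrn1, with an SD of 0.042 in log2 TPM. That SD was 0.053, 0.055 and 0.11 after Low Protein, MAM and Poly I:C. The difference to saline also served to choose the gene, so nothing is read from its lying outside. A gap of the size of its difference between Poly I:C and saline, -0.11, lay inside both intervals with Poly I:C. The intervals treat pups as independent, although the Poly I:C litters of Mkrn1 did not overlap. Mgat4b differed by -0.039, 0.023 and 0.063, with bounds from -0.15 to 0.17. Ap5s1 differed by -0.076, -0.053 and 0.023, and its bounds ran from -0.31 to 0.26, the widest of the 6 genes. These intervals describe the precision and do not show that the treatments acted alike.

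The 3 treated groups were also tested together. The limma F test had an adjusted p of 0.661 in Bola1, 0.763 in Mgat4b, 0.942 in Mkrn1, 0.957 in Ap5s1, 0.977 in Yif1a and 0.994 in Josd2. Of the genes tested 0.944% passed this test after adjustment, and 17.2% at an unadjusted p under 0.05.

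**Figure D3:**
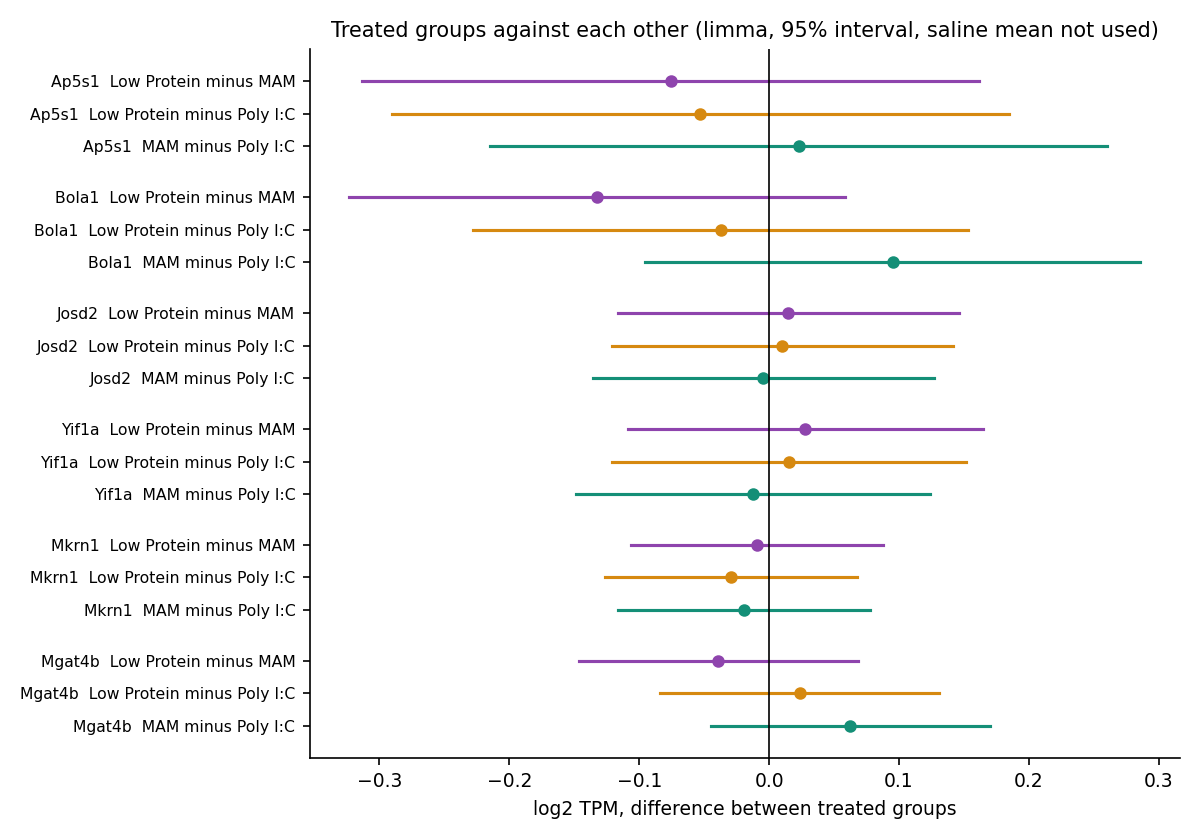
Difference in log2 TPM between pairs of treated groups for each gene, with its 95% interval from limma. All 18 intervals include 0, and the widest are those of Ap5s1, from -0.31 to 0.26 over its 3 pairs.

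The 4 genes that were higher than saline had short genomic spans, whereas the other two did not. In the GRCr8 assembly Bola1 spans 1017 bases, Ap5s1 3307, Josd2 3890 and Yif1a 4517. Bola1 was longer than 0.797% of the genes tested, Ap5s1 than 12.3%, Josd2 than 15.5% and Yif1a than 18.7%. Over all 17010 genes with a span, of median 17177 bases, these shares were 10.5%, 18.0%, 20.2% and 22.2%. The filter for the genes tested acts on values that depend on the span. Mgat4b spans 10887 bases, near the median of 12266 over 5019 genes tested with a span, and Mkrn1 spans 27502 bases, longer than 78.6% of them. The reads were aligned to an older assembly, rn6, so the spans serve as lengths only. The description as small genes thus holds for 4 of the 6.

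**Figure D4:**
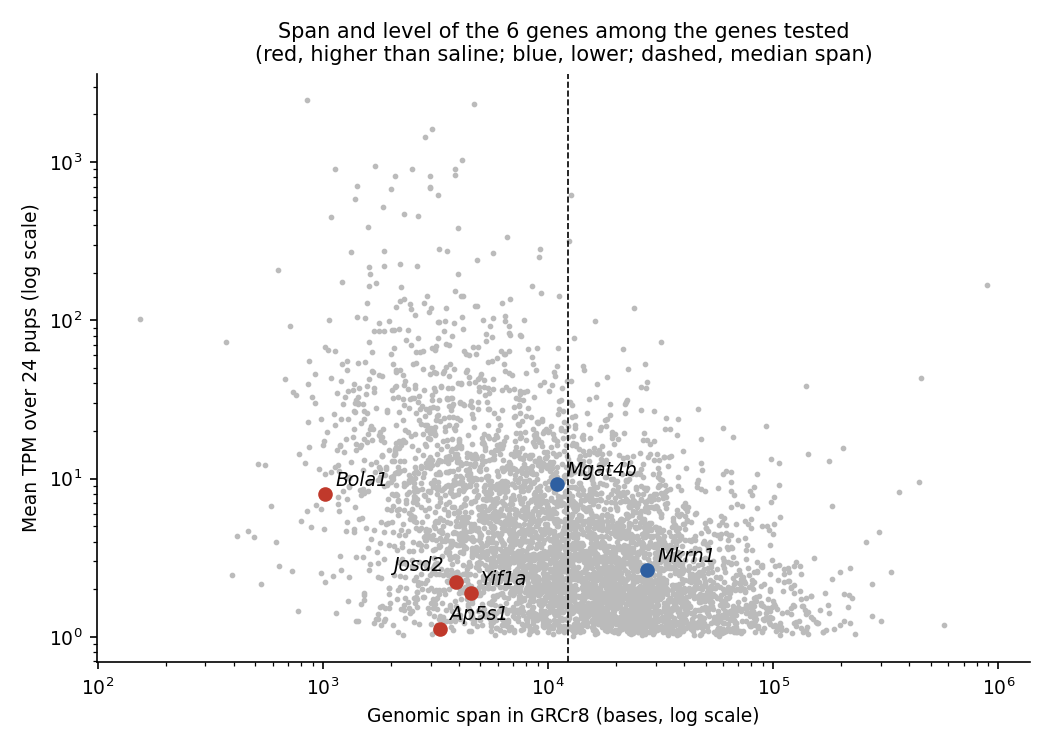
Mean TPM over 24 pups against genomic span, both on log scales, for the genes tested (grey) and the 6 members, with genes higher than saline in red and lower in blue; the dashed line is the median span of 12266 bases. The 4 red genes lie left of the line, Mgat4b just left of it and Mkrn1 right of it, and Ap5s1 is drawn although it is not a gene tested.

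Pairs of members varied together within groups to different extents. After removal of the group means, Pearson's r over the 24 pups was 0.52 between Mkrn1 and Mgat4b and 0.33 between Josd2 and Yif1a, and it was 0.0011 between Bola1 and Josd2. Ap5s1, which was higher than saline, correlated with the lower genes, at 0.53 with Mkrn1 and 0.48 with Mgat4b. Yif1a and Mkrn1 correlated at -0.45. These values come from shared libraries with 1 scaling per pup and are descriptions.

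Genes of the members' families and pathways were compared with saline in the same fit. Of 53 listed relatives 49 are in the table and 21 were tested. In limma none passed an adjusted p of 0.05 against saline in any of the 3 groups, and 0, 3 and 1 passed at an unadjusted p under 0.05 after Low Protein, MAM and Poly I:C. The unadjusted share over all genes tested was 8.24%, 11.2% and 9.95%, and the adjusted share 0%, 0.0197% and 0%. The median difference of the relatives was 0.032, -0.029 and 0.0064, beside -0.0054, -0.046 and 0.0081 over all genes tested.

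The closest paralogs of the ubiquitin genes had values that were smaller or of the opposite sign. Josd1, the closest paralog of Josd2, had differences of 0.032 after Low Protein, -0.14 after MAM and 0.028 after Poly I:C, the value after MAM being 1 of the 3 at an unadjusted p under 0.05 (limma adjusted p = 0.416). Mkrn2, the makorin closest to Mkrn1, had 0.042, 0.023 and 0.068 in the same order. The difference between a member and its paralog was not tested.

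The AP-5 partners of Ap5s1 that were tested, Ap5z1 and Ap5b1, did not pass an unadjusted p of 0.05 in any group. Ap5z1, a large subunit, had 0.11, 0.12 and 0.10 after Low Protein, MAM and Poly I:C, and Ap5b1, the beta subunit, had -0.17, -0.061 and -0.19. Ap1s1, the sigma subunit of the AP-1 complex, was lower after Poly I:C by a log2 difference of -0.17 (limma adjusted p = 0.314). Ap5m1, the mu subunit, was too low to be tested, at 0.37 to 0.453 TPM over the groups.

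Of 6 tested genes of iron-sulfur cluster assembly, 5, 2 and 4 had a higher mean than saline after Low Protein, MAM and Poly I:C. Hspa9, the mitochondrial chaperone of the cluster pathway, was at -0.19 after MAM (limma adjusted p = 0.391) whereas it was at 0.076 after Low Protein and 0.11 after Poly I:C. Isca1, a carrier of clusters, was at -0.086, -0.11 and -0.10 in the 3 groups, and the middle value is the third of the MAM calls (limma adjusted p = 0.423). This call depended on the scaling. Under the median of ratios it was at -0.075 (limma unadjusted p = 0.223), whereas Hspa9 and Josd1 stayed under 0.05. Glrx5, a glutaredoxin of the same pathway, was at 0.077, 0.0078 and 0.039. Of the 5 tested genes of N-glycan branching 4, 3 and 3 were lower than saline in mean, and none passed at an unadjusted p. Of the 4 tested genes of the YIP1 and YIF1 family 1, 4 and 2 were lower. The share of all genes tested with each sign was not computed. Their median difference was -0.0054, -0.046 and 0.0081 after Low Protein, MAM and Poly I:C. Nothing is therefore read from the counts of higher or lower genes in these lists. Yif1b, the paralog of Yif1a, had a mean of 0.0222 TPM in saline, and Mgat4a, the paralog of Mgat4b, 0.243 TPM, so neither was tested.

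**Figure D5:**
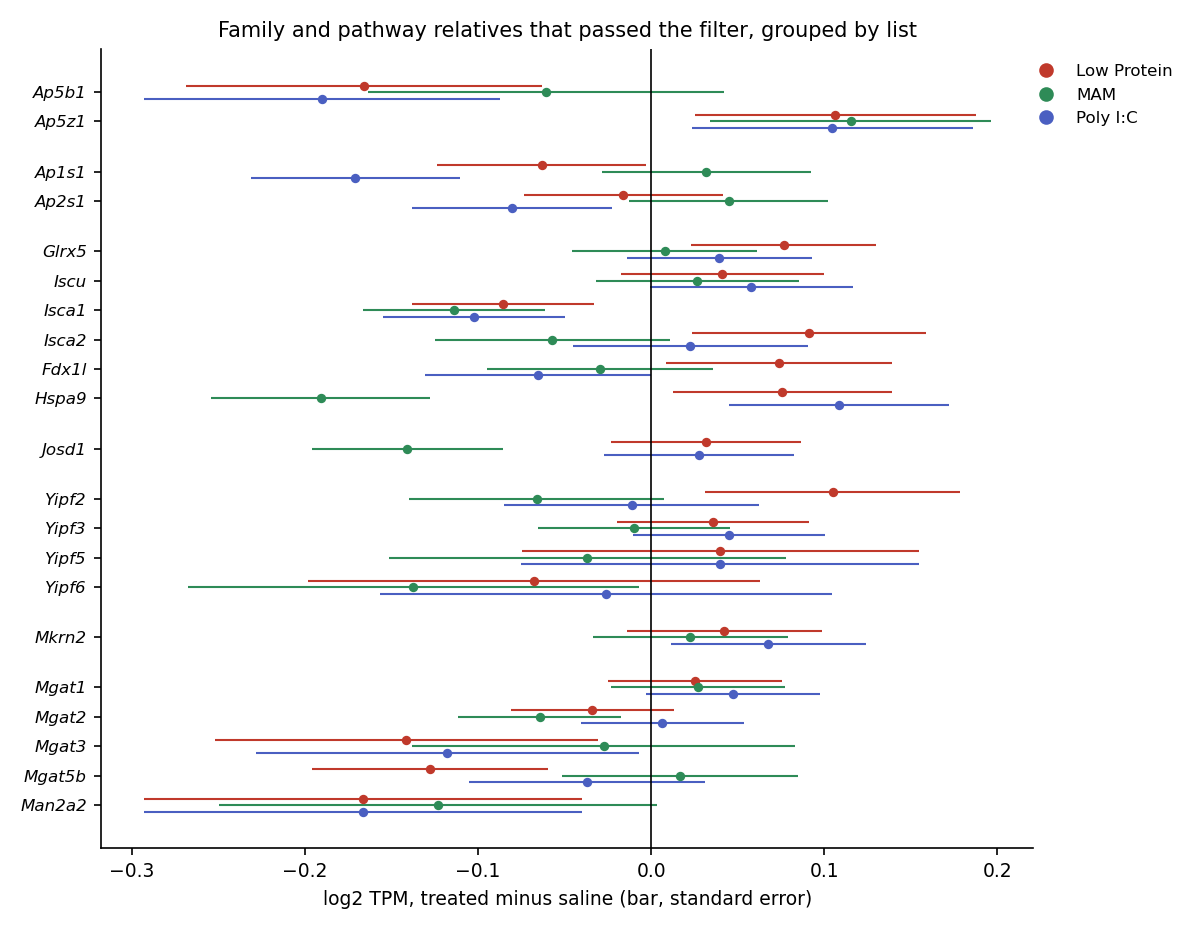
Difference in log2 TPM to saline with its standard error from limma for the 21 relatives tested, after Low Protein (red), MAM (green) and Poly I:C (blue), grouped by list. Values lie on both sides of 0, from -0.19 to 0.12, and Josd1 and Hspa9 are lower after MAM than after the other treatments.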

How the data were processed

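RNA-seq of 24 pups was available as a single table. The authors trimmed reads, aligned them with STAR (2.4.1d, rn6, per the labels), quantified them with Partek, and deposited TPM with an offset of 0.0001, which 20.9% of the values equal. Values of every pup sum to 70350.1. Reads per pup were estimated from steps between low values times GRCr8 span, of which 49.2% to 54.4% lay within 0.05 of a whole number (10% by chance), so depths and counting errors are approximate. Spans matched 97.6% of genes.

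The log2 of the deposited TPM was fitted with limma (3.58.1, R 4.3.3) over all 24 pups, by group and with Benjamini-Hochberg adjustment over 5086 genes with a mean above 1 in every group. Ap5s1 was read from a fit of 13770 genes above the offset in at least 12 pups. Exact permutation tests used 924 splits, with a smallest p of 0.00216. The fit was tested on simulated data. Genes named are the 6 members, the closest or test-passing relatives, and for each member the 3 tested genes with the highest correlation, of which 1 is not reported here. The members and gene lists were chosen with earlier results of these data known. The promoter patterns and stretches were chosen after the sequences were read, and the shared pattern was found by a search for 6 letters, 3 free positions and 3 letters. Markers and relatives without a matching symbol were not analysed here. Alternatives covered the filter, pseudocount, scaling, pups in the fit, block, litter, variance model and leaving out each pup or litter.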

Additional observations from a re-analysis of the deposited data

Results flagged for a closer look

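Each of the 24 combinations of a gene and a group was examined for a pup far from the other 5 by Dixon's criterion, which by chance marks about 1 group in 20, and 0 were marked.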

How the results depend on the processing

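Of 738 differences between a treated group and saline recomputed under 41 alternatives, 738 kept their sign. That sign chose the members, and many alternatives cannot change it. The variance model, the blocks and litter means return the same estimate, and so does leaving out pups of another group. Bola1 after Low Protein counts as kept at 0.0039, so the count is not a measure of robustness. Of 738 differences between treated groups, 682 kept their sign and 0 had an adjusted p under 0.05 (lowest 0.175 in limma, highest 1). Of these, 6 had an unadjusted p under 0.05, among them Mgat4b for MAM minus Poly I:C under the median of ratios, at 0.11. Their main estimates all have intervals that include 0. The estimated depth is lowest for Ap5s1, whose spread between treated pups exceeds its counting error.

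Under the median of ratios, signs changed for Josd2 (-0.014 for Low Protein minus MAM, 0.039 for MAM minus Poly I:C), Yif1a (-0.00087 and 0.031) and Mkrn1 (0.024 for MAM minus Poly I:C). Under the upper quartile they changed for Josd2 (-0.0091 and 0.021), Yif1a (0.012) and Mkrn1 (0.0053). In these scalings MAM against saline had a median over the genes tested of -0.0071 and -0.013, against -0.046 as deposited.

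Leaving out 1 pup or litter gave these ranges for Low Protein minus MAM, with the lowest and highest values. Ap5s1 ran from -0.17 to 0.022, Josd2 from -0.058 to 0.087 and Mkrn1 from -0.040 to 0.022. For Low Protein minus Poly I:C, Ap5s1 ran from -0.23 to 0.12, Bola1 from -0.090 to 0.0011, Josd2 from -0.057 to 0.078, Yif1a from -0.13 to 0.16, Mkrn1 from -0.12 to 0.058 and Mgat4b from -0.00081 to 0.048. For MAM minus Poly I:C, Ap5s1 ran from -0.15 to 0.20, Josd2 from -0.077 to 0.068, Yif1a from -0.16 to 0.14 and Mkrn1 from -0.11 to 0.067.

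The counts over all genes tested depended more on the setting. For Low Protein minus MAM, 5 genes passed an adjusted p under 0.05, with a range from 0 without MAM litter 2 to 13 without saline pup 2.1 and, at an unadjusted p, 560 with a range from 264 to 988. For Low Protein minus Poly I:C these were 2 (0 to 4) and 270 (127 to 738), the unadjusted extremes coming from the Low Protein litters. For MAM minus Poly I:C they were 176 (0 without MAM litter 2 to 313) and 1176 (733 to 1280), and for the F test 48 (0 to 154) and 876 (445 to 1083). Relatives at an unadjusted p under 0.05 ranged from 0 to 2 after Low Protein (2 without saline pup 1.3), from 1, without MAM litter 2, to 3 after MAM, and from 0 to 3 after Poly I:C, where leaving out Poly I:C litter 2 gave the lowest count and leaving out saline litter 1 the highest.

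Without the filter the unadjusted counts were 1166, 666, 2396 and, for the F test, 1761, with more genes tested, and the adjusted counts of the last pair 89 and 23, with 1 relative after Low Protein and 5 after MAM. The adjusted counts for Low Protein minus MAM and minus Poly I:C were 3 and 1 with log2(value + 1), 2 and 1 with the median of ratios, and 3 and 1 with the upper quartile. The median of ratios gave 1 relative after Low Protein and 2 after Poly I:C, as did a fit of only the pups compared, which also gave 0 genes for Low Protein minus Poly I:C, 300 for MAM minus Poly I:C and 91 for the F test. Litter means gave 0 adjusted calls throughout, unadjusted counts of 352, 164, 768 and 442, and 1, 1 and 2 relatives. Litter as a random block gave 2, 1, 99 and 29. The causes were not tested.

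With the replicate number as a block, the replicate block gave 427 genes for MAM minus Poly I:C and 104 for the F test. No label ties pups of 1 number across groups, so the numbers were not taken to pair the pups. The correlations of 36 pairs with the same number ran from -0.42 to 0.56, with 22 over 0.1. As a hint from the data, their median was 0.16, against -0.020 for other numbers, and 12 of 24 pups correlated best with their own number. A factor shared by pups of 1 number was not tested.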

Other observations

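The tested genes whose log2 TPM followed each member most closely over the 24 pups were found by Pearson's r, as a description, since the pups share group means and scaling. Mgat4b lay closest to Bai1 (r = 0.89), Sema6b (0.88) and Map3k10 (0.86), and Mkrn1 to Psd2 (0.86), Syn1 (0.85) and Sgsm2 (0.84). Syn1, which encodes the synaptic vesicle protein synapsin I, had a mean of 2.29 TPM in saline, 1.91 after Low Protein, 1.95 after MAM and 2.05 after Poly I:C. Sema6b, a semaphorin gene, had 8.22, 6.96, 7.51 and 7.16 TPM in the same order. After removal of the group means r was 0.80 between Mkrn1 and Syn1 and 0.83 between Mgat4b and Sema6b.

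The genes higher than saline had weaker and different neighbours. Yif1a lay closest to Tex261 (0.77), Stoml2 (0.72) and Polr1e (0.67), Josd2 to H2afv (0.74), Mrps16 (0.71) and Hmg20b (0.66), and Bola1 to Ndufs8 (0.72) and Sf3b5 (0.70). Ndufs8, a subunit of respiratory complex I, had 10.2 TPM in saline, 10.4 after Low Protein, 10.8 after MAM and 10.2 after Poly I:C. Ap5s1 had the loosest fit, with Rnf24 at 0.63, Cyr61 at 0.57 and Cnpy3 at 0.55.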
